A study of Mus musculus with 12 samples.

Results

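The core circadian clock genes were followed in the kidneys of mice given a single injection of SK-124, an inhibitor of the salt-inducible kinases SIK2 and SIK3. The group held the listed genes Per1, Per2, Per3, Cry1, Cry2, Arntl, Clock, Npas2, Nr1d1 and Nr1d2, which are 10 of the 55401 genes in the tables, and all 10 were among the 14159 genes with enough counts to be tested. Whole-kidney RNA of male C57BL6 mice was sequenced, 6 given vehicle and 6 given SK-124, with 1 library per mouse. A figure legend of the study gives an age of 8 weeks and an intraperitoneal SK-124 dose of 40 mg/kg for this experiment. The labels name no genetic change in either group. The hour of injection, the hour of collection and the interval between them for the sequenced kidneys are not given in the sources used here, so a difference in collection time between the groups was not tested. Whole kidney mixes all nephron segments, and in such bulk samples fewer cells of a type and less RNA per cell cannot be told apart.

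The molecular clock is a feedback loop of transcription. CLOCK, or its relative NPAS2, pairs with BMAL1, the product of Arntl, and switches on genes with E-box sites, among them the Per, Cry and Nr1d genes. PER and CRY proteins then return to the nucleus and silence that activator, while the REV-ERB proteins made by Nr1d1 and Nr1d2 repress Arntl and other genes with ROR elements. E-box genes and ROR-element genes therefore peak at different times of day, so the levels of both sets depend on clock time. Per1 is in addition an immediate-early gene, since its promoter responds to CREB and to the glucocorticoid receptor. SIK kinases hold the CREB coactivators CRTC in the cytoplasm. In kidney the clock times the reabsorption of sodium and water and the filtration rate.

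Promoter stretches of genes that changed are shown for the letters of the clock and CREB motifs they hold. All are RefSeq sequence of build GRCm38.p6, printed from 5′ to 3′ on the strand of the gene, and the capitals mark motifs found by letter search on both strands. The motifs searched were the E-box CACGTG, its variant CACGTT, the cAMP response element TGACGTCA, its core TGACG, which lies within it, the ROR core AGGTCA and the D-box TTATGTAA. RefSeq windows of 250 bases before to 50 bases after a start site were at hand for 9 of the 10 core genes. The Per1 stretch lies at chr11:69098699-69098848, the Cry1 stretch at chr10:85185065-85185164 on the minus strand, the Per3 stretch at chr4:151044791-151044890 on the minus strand, and the stretch of Nfil3, a repressor of D-box genes, at chr13:52981074-52981149 on the minus strand. The Per1 stretch lies within an intron of a longer annotated Per1 transcript. The Cry1, Per3 and Nfil3 stretches lie just outside those genes, that of Per3 within an intron of Camta1. The Arntl site, in the first exon, lies at chr7:113207531-113207560.
Per1 upstream: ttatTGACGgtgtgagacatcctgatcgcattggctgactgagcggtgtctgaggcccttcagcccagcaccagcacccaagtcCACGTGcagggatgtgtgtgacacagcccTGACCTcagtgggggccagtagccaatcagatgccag
Cry1 upstream: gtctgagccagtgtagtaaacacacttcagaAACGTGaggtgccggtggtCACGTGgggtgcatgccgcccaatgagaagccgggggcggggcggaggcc
Per3 upstream: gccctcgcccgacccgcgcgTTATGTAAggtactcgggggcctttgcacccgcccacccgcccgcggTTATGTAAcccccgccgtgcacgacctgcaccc
Nfil3 upstream: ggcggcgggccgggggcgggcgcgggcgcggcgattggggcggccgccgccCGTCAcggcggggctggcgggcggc
Arntl site: aggcagaaagtAGGTCAgggacggaggtgc

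The Per1 stretch held an E-box 166 bases before the start, the cAMP response element core at 246 bases before it and, on the other strand, the ROR core at 137 bases before it. The E-box occurred in 7.15% of all 32851 promoter windows, the cAMP response element core in 20.8% and the ROR core in 16.3%. In Cry1 the E-box stood 60 bases and its variant 79 bases before the start, and the variant occurred in 4.68% of windows. Per3 held the D-box at 205 and again at 158 bases before the start, a motif present in 0.938% of windows. The Nfil3 stretch held the cAMP response element core on the other strand, 59 bases before the start. Outside the stretches shown, the Nfil3 window held the ROR core on the other strand, 12 bases before the start. The cAMP response element core also stood 8 bases before the Cry1 start and 132 bases before the start of a second Per1 window. The Arntl window held the ROR core 32 bases into the first exon. In all, 4 of the core genes had the E-box or its variant in a window. The full element TGACGTCA was in none of the core genes' windows, against 1.79% of all windows. These are matches of letters in short windows, and binding was not measured.

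Depth was even, from 19244227 to 19771802 estimated reads per mouse, and no library stood apart by depth. Of 9 kidney epithelial markers, among them Slc34a1 and Umod, 0 passed the test in edgeR, against 1 (Umod, higher) at an unadjusted p under 0.05, 0 by DESeq2 and 1 (lower) by either limma fit. Their summed level ran from 9256 to 10640 CPM, the depth-scaled count unit used here, in vehicle mice and from 9711 to 11370 in SK-124 mice. Adrenal markers were near 0, with a highest single count of 17 in any mouse. None of 5 blood genes passed in edgeR, also at an unadjusted p under 0.05, in DESeq2 or in limma. Of 6 tested immune genes, 2 (Cd68 and Cd79a) were lower by edgeR and 4 were not called, where 13.5% of all tested genes were lower. The 10 most abundant genes took 39.9% to 43.2% of reads in vehicle mice, 44.4% to 46.8% in SK-124 mice 1 to 3 and 38.6% to 40.2% in SK-124 mice 4 to 6. The blood gene Hba-a1 was at 489 and 455 CPM in vehicle mice 3 and 4, against a vehicle median of 220 CPM. Vehicle mouse 5 stood apart in the clock genes themselves, so results are given without it where it bears on them.

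Of the 10 core genes, Per1, Cry1 and Arntl were higher after SK-124, Per3 was lower, and 6 did not pass the test. The threshold was an adjusted p, or FDR, under 0.05 in edgeR's quasi-likelihood test over all tested genes. Across all tested genes 10.8% were higher and 13.5% lower at that threshold. All 6 SK-124 mice lay above all 6 vehicle mice for Per1 and Cry1, which was true of 6.32% of all tested genes. For Per3 they all lay below, which was true of 6.65% of tested genes. The median log2 fold change was 0.12 over the core genes and -0.01 over all tested genes. Per1 stood alone in size, since the other changes were all under 1 on the log2 scale.

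**Figure D1:**
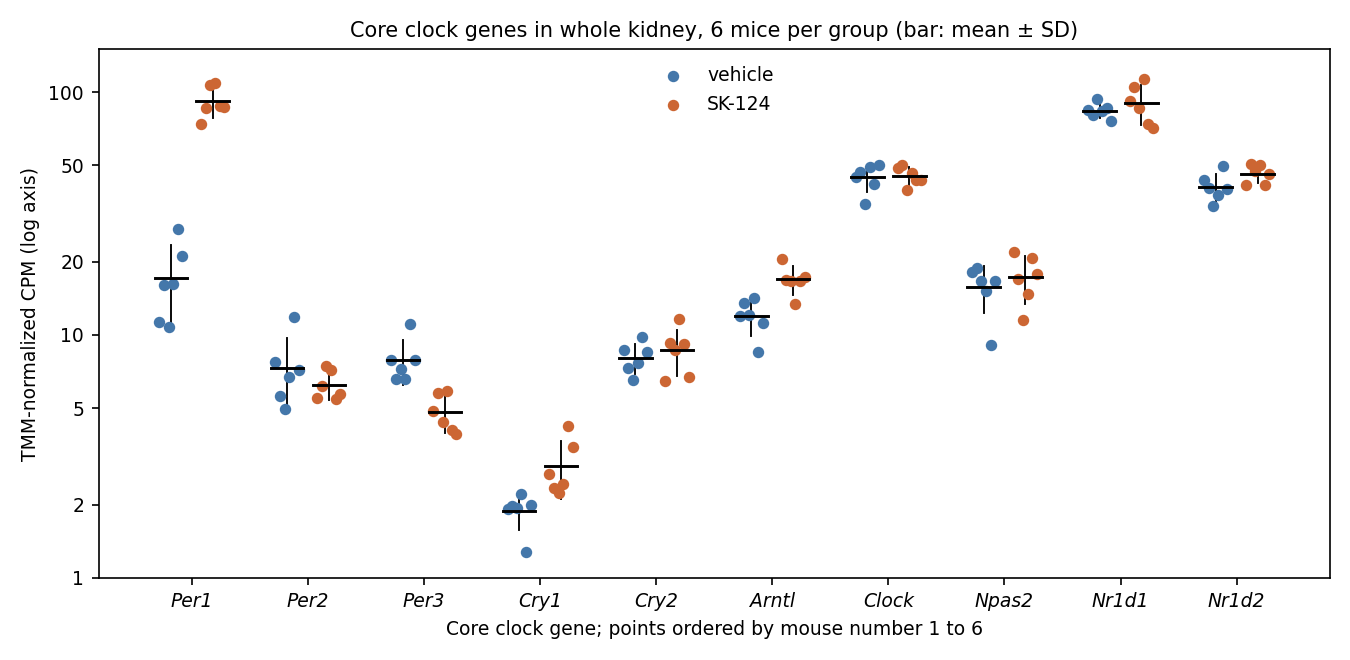
TMM-normalized CPM (log axis) of each core clock gene in whole kidney, with one point per mouse, 6 vehicle and 6 SK-124 mice, a bar at the mean and a line for ± 1 SD. Per1 rose from a range of 10.7 to 27.2 CPM to a range of 73.9 to 108.6 CPM, while Clock, Npas2, Nr1d1 and Nr1d2 covered overlapping ranges in both groups.

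The period genes encode the rate-setting repressors of the loop and they did not move together. Per1 (ENSMUSG00000020893.17, chr11:69095217-69109960, plus strand) was measured at 11.3, 16.1, 10.7, 16.1, 27.2 and 21.2 CPM in vehicle mice 1 to 6. In SK-124 mice 1 to 6 it was measured at 73.9, 85.9, 107.0, 108.6, 87.6 and 87.1 CPM. Even the lowest SK-124 mouse was thus far above the highest vehicle mouse. The mean rose from 17.1 ± 6.25 (SD, n = 6) to 91.7 ± 13.5 CPM (SD, n = 6), a log2 fold change of 2.42 ± 0.18 (SE) with an FDR of 3.229e-08 by edgeR. Among the 14159 tested genes this change ranked 37 by log2 fold change. Without vehicle mouse 5, its highest control, the log2 fold change was 2.60.

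Per2 (ENSMUSG00000055866.9, chr1:91415982-91459324, minus strand), the closest relative of Per1 and like it an E-box target, gave no such separation. Its level ran from 4.95 through a median of 6.93 to 11.8 CPM in vehicle mice and from 5.46 through 5.93 to 7.45 CPM in SK-124 mice. The groups overlapped fully, with every SK-124 mouse inside the vehicle range. The log2 fold change was -0.23 ± 0.17 (SE, edgeR FDR 0.36), with an approximate 95% interval from -0.56 to 0.10. The upper end of that interval lies far below the lower end for Per1, 2.07. Without vehicle mouse 5 the log2 fold change of Per2 was -0.04.

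Per3 (ENSMUSG00000028957.12, chr4:151003652-151044665, minus strand), whose promoter holds the D-box pair shown above, moved down. Levels of 6.55, 7.56 and 11.1 CPM (lowest, median, highest) in vehicle mice compared with 3.90, 4.62 and 5.89 CPM in SK-124 mice. The ranges did not overlap. The log2 fold change was -0.71 ± 0.14 (SE, edgeR FDR 0.0011), and it was -0.59 without vehicle mouse 5, the highest of its group. Camta1 overlaps Per3 on the same strand and moved the other way, with a log2 fold change of 0.28 (edgeR FDR 0.0087).

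The cryptochromes are the partners of PER in repression, and only the rarer one was called. Cry1 (ENSMUSG00000020038.10, chr10:85131700-85185064, minus strand), which carries a ROR element in an intron as well as promoter E-boxes, gave 1.28, 1.96 and 2.22 CPM (lowest, median, highest) in vehicle mice and 2.24, 2.54 and 4.21 CPM in SK-124 mice. The groups touched without overlapping, and SK-124 mice 5 and 6 were the highest, at 4.21 and 3.45 CPM. The log2 fold change was 0.62 ± 0.18 (SE, edgeR FDR 0.016). This call was lost with library totals in place of TMM scaling (log2 fold change 0.52, FDR 0.052), with limma on log2(TPM + 1) (0.22, FDR 0.19) or log2(TPM + 0.1) (0.42, FDR 0.20), and with SK-124 mice 1 to 3 alone (0.36, FDR 0.22). Cry2 (ENSMUSG00000068742.11, chr2:92403646-92434043, minus strand) ran from 6.54 to 9.77 CPM with vehicle and from 6.49 to 11.6 CPM with SK-124. Its log2 fold change was 0.10 ± 0.13 (SE, edgeR FDR 0.64), with an interval from -0.16 to 0.36.

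Among the activators, Arntl was higher and its partners were not called. Arntl (ENSMUSG00000055116.8, chr7:113207465-113314126, plus strand), which encodes BMAL1 and is repressed by the REV-ERB proteins, was measured at 8.49, 12.1 and 14.2 CPM (lowest, median, highest) in vehicle mice. SK-124 mice 1 to 6 gave 20.5, 16.8, 16.8, 13.4, 16.6 and 17.4 CPM. Of the SK-124 mice 5 lay above every vehicle mouse, and SK-124 mouse 4 lay within the vehicle range. The log2 fold change was 0.50 ± 0.11 (SE, edgeR FDR 0.0027), and it was 0.42 (edgeR FDR 0.0040) without vehicle mouse 5, the lowest control. With SK-124 mice 1 to 3 alone it was 0.60 and with SK-124 mice 4 to 6 alone 0.41.

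Clock (ENSMUSG00000029238.11, chr5:76209868-76304792, minus strand), the usual partner of BMAL1, ran from 34.6 to 49.9 CPM with vehicle and from 39.6 to 50.03 CPM with SK-124, and the ranges lay over each other. Its log2 fold change of 0.02 ± 0.08 (SE, edgeR FDR 0.88) had an interval from -0.14 to 0.18, and its sign turned with library totals (-0.10). Npas2 (ENSMUSG00000026077.15, chr1:39193731-39363236, plus strand), the partner that can stand in for CLOCK, ran from 9.11 to 18.8 CPM with vehicle and from 11.5 to 21.9 CPM with SK-124. The log2 fold change was 0.13 ± 0.16 (SE, edgeR FDR 0.60), with an interval from -0.18 to 0.44. The low end of its vehicle range was again vehicle mouse 5, and without that mouse its log2 fold change was 0.01.

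The REV-ERB genes link the E-box side of the loop to the ROR-element side, and neither was called. Nr1d1 (ENSMUSG00000020889.11, chr11:98767932-98775333, minus strand) ran from 76.1 through 83.8 to 93.4 CPM with vehicle and from 71.4 through 88.6 to 113.2 CPM with SK-124. The SK-124 mice spread to both sides of the vehicle mice, with coefficients of variation of 18.4% against 6.87%. Its log2 fold change was 0.10 ± 0.10 (SE, edgeR FDR 0.49), with an interval from -0.09 to 0.29, and it turned to -0.01 with library totals. Thra, which overlaps Nr1d1 on the opposite strand, was lower (log2 fold change -0.32, edgeR FDR 4.8e-04), and whether the counting used strand is not given in the sources used here. Nr1d2 (ENSMUSG00000021775.11, chr14:18204054-18239127, minus strand) ran from 33.8 to 49.5 CPM with vehicle and from 41.2 to 50.7 CPM with SK-124. Its log2 fold change was 0.18 ± 0.08 (SE, edgeR FDR 0.13), and it passed the threshold without vehicle mouse 5 (0.24, FDR 0.027).

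Compared per length, on the length-scaled TPM unit, the order of the core genes changed mainly through Per1. In vehicle mice Nr1d1 led with a mean of 30.9 ± 1.70 TPM (SD, n = 6), followed by Nr1d2 (9.66), Clock (5.15), Arntl (4.36), Npas2 (3.85), Per1 (3.83), Cry2 (2.12), Per3 (1.62), Per2 (1.21) and Cry1 (0.642 TPM). Of these neighbours, Nr1d1 and Nr1d2 had ranges that did not overlap, as did Nr1d2 and Clock, while every later neighbour in the order overlapped. In SK-124 mice Nr1d1 again led at 29.9 ± 5.17 TPM (SD, n = 6), and Per1 had moved to the second place at 18.0 ± 3.46 TPM, above Nr1d2 at 9.61 TPM in every mouse. The ranges of Nr1d1, Per1, Nr1d2 and the next gene did not overlap there. Arntl (5.64), Clock (4.69), Npas2 (4.02) and Cry2 (2.08 TPM) followed in the same relative order except that Arntl was above Clock. Cry1, Per3 and Per2 closed the list at 0.947, 0.942 and 0.920 TPM, with ranges that overlapped.

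To set the Per1 change against the rest of the loop, the log2 ratio of Per1 to each other core gene was taken within each mouse. This ratio takes out most of any scaling error of a library, because both genes come from the same mouse. The 0.5 CPM added before the logarithm keeps that error from cancelling fully, most so for the rare Cry1. The ratio of Per1 to Per2 ran from 0.52 to 1.51 in vehicle mice and from 3.63 to 3.89 in SK-124 mice, a difference of 2.62. Against Nr1d1, the most abundant core gene, it ran from -3.06 to -1.64 with vehicle and from -0.31 to 0.32 with SK-124, a difference of 2.37. Against Arntl, which was itself higher, it ran from -0.17 to 1.62 with vehicle and from 1.82 to 2.97 with SK-124. All 9 ratios were higher in every SK-124 mouse than in any vehicle mouse. Their differences ran from 1.96 against Arntl to 3.10 against Per3. Each gave p = 0.002165 in a two-sided exact permutation test, before and after adjustment over the 9 ratios, which is the smallest p that 6 against 6 mice can give. The 9 tests are not independent, since all share Per1. They mostly restate the separation of Per1 itself, because the other core genes changed far less.

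**Figure D2:**
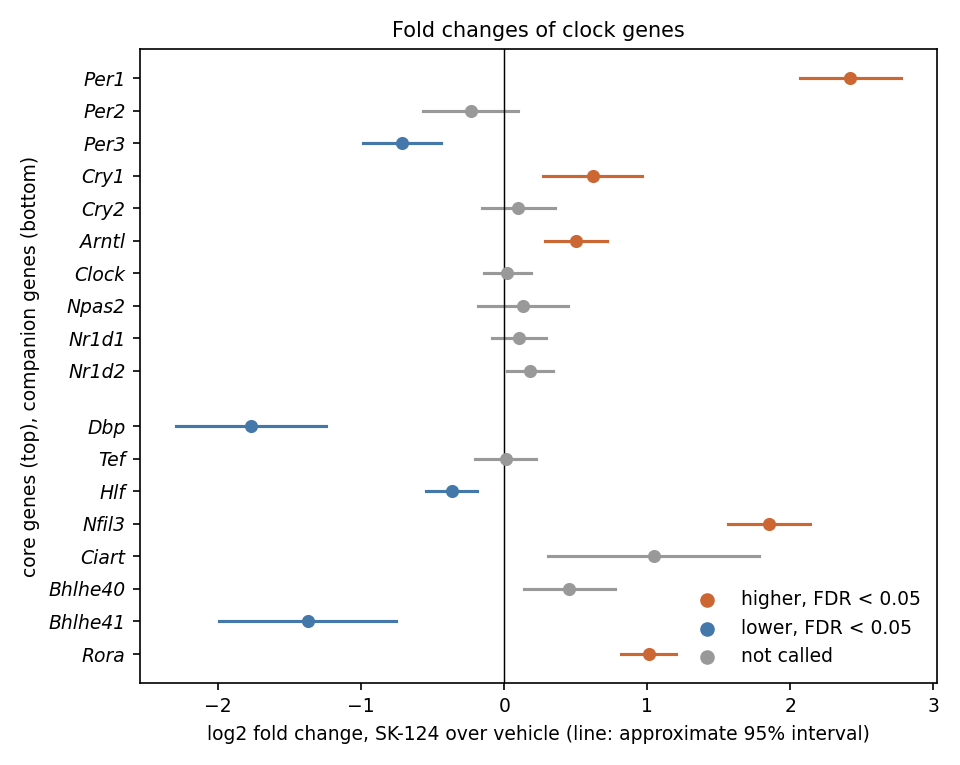
Log2 fold changes of SK-124 over vehicle (x axis) for the 10 core clock genes (top) and 8 companion clock genes (bottom), as points with approximate 95% intervals from edgeR, coloured by direction where the FDR was under 0.05. Per1 lies furthest right at 2.42 and Dbp furthest left at -1.77.

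Beyond the core loop, 8 companion genes of its auxiliary loops were measured, and 5 of them were called, 2 higher and 3 lower. Of all tested genes 10.8% were called higher and 13.5% lower. Nfil3, which represses D-box genes and is itself a ROR-element gene, ran from 2.94 to 6.99 CPM with vehicle and from 14.9 to 22.2 CPM with SK-124 (log2 fold change 1.85 ± 0.15 SE, edgeR FDR 6.2e-08). Rora, an activator at ROR elements, ran from 23.5 to 25.1 CPM with vehicle and from 36.8 to 63.4 CPM with SK-124 (1.01 ± 0.10, FDR 7.9e-07). Neither gene overlapped between groups, and 6.32% of all tested genes were likewise higher in every SK-124 mouse than in any vehicle mouse. Dbp, an activator at D-boxes and a classical E-box output, gave 12.6, 20.8 and 41.0 CPM (lowest, median, highest) with vehicle and 4.26, 5.97 and 11.1 CPM with SK-124. Its ranges did not overlap, and 6.65% of all tested genes lay below in the same way. The log2 fold change of Dbp was -1.77 ± 0.27 (SE, edgeR FDR 9.5e-05), or -1.49 without vehicle mouse 5. Hlf, a relative of Dbp, ran from 55.1 to 84.2 CPM with vehicle and from 46.7 to 59.0 CPM with SK-124, with overlap. Its log2 fold change was -0.37 ± 0.09 (SE, edgeR FDR 0.0066), and the call was lost with both limma fits (FDR 0.056) and with SK-124 mice 1 to 3 alone (FDR 0.097). Bhlhe41, a repressor at E-boxes, fell from 1.28 ± 0.40 to 0.494 ± 0.27 CPM (SD, n = 6), a log2 fold change of -1.37 (edgeR FDR 0.0038), with ranges that overlapped and a call lost with SK-124 mice 1 to 3 alone (FDR 0.060).

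The remaining 3 companions were not called. Bhlhe40, the relative of Bhlhe41, had a log2 fold change of 0.45 ± 0.16 (SE, edgeR FDR 0.051), and Ciart, another repressor of the activator complex, one of 1.04 ± 0.38 (SE, edgeR FDR 0.053). Without vehicle mouse 5 both passed (0.60, FDR 0.0058, and 1.304, FDR 0.024), which brought the companions higher to 4. Tef, a D-box activator like Dbp, was at 112 ± 13.1 and 113 ± 20.9 CPM (SD, n = 6).

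Each mouse was then described by the mean log2 level of both sides of the loop, relative to the vehicle mean. The E-box and D-box side held Per2, Per3, Nr1d1, Nr1d2, Dbp, Tef, Hlf, Ciart and Bhlhe41, without Per1, and the ROR-element side held Arntl, Clock, Npas2, Cry1 and Nfil3. On the first side 4 of 9 genes were lower (Per3, Dbp, Hlf, Bhlhe41) and 0 were higher by edgeR, against 2 higher at an unadjusted p under 0.05 and 1 by DESeq2, and 0 by limma. On the second side 3 of 5 were higher (Arntl, Cry1, Nfil3) and 0 were lower by edgeR, with or without adjustment, by DESeq2 or by limma. By edgeR 10.8% of all tested genes were higher and 13.5% lower. The ROR-element side read 0.71, 0.52, 0.42, 0.43, 0.73 and 0.70 in SK-124 mice 1 to 6, all above the vehicle range of -0.46 to 0.22. The E-box and D-box side read -0.52, -0.18, -0.16, 0.02, -0.52 and -0.54 in the same mice. Mice 1, 5 and 6 were thus below the vehicle range of -0.19 to 0.44, while mice 2, 3 and 4 lay inside it. Per1 was high in all 6, from 2.15 to 2.71 above the vehicle mean on the log2 scale. The mean difference between the groups was -0.31 for the E-box and D-box side and 0.58 for the ROR-element side, with vehicle SDs of 0.23 and 0.24.

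Both differences were smaller when only core genes were averaged. With Arntl, Clock, Npas2 and Cry1 the ROR-element difference was 0.29, and the SK-124 mice, from 0.04 to 0.47, overlapped the vehicle mice, from -0.42 to 0.15. With Per2, Per3, Nr1d1 and Nr1d2 the E-box difference was -0.14, and 3 of the 6 SK-124 mice lay inside the vehicle range of -0.16 to 0.38. The E-box genes Cry2 and Bhlhe40 are in neither side. With both added to the E-box and D-box side its difference was -0.21 over 11 genes, and 3 SK-124 mice lay below the vehicle range. The clock-controlled genes Usp2 and Nampt, described below, are in neither side as well, and both were higher (log2 fold change 1.35 and 0.32). Without vehicle mouse 5 the differences over all genes of each side were 0.49 and -0.23. The separation on the ROR-element side therefore depended on Nfil3 being counted in it, and the part of a change in clock time in these differences was not tested.

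**Figure D3:**
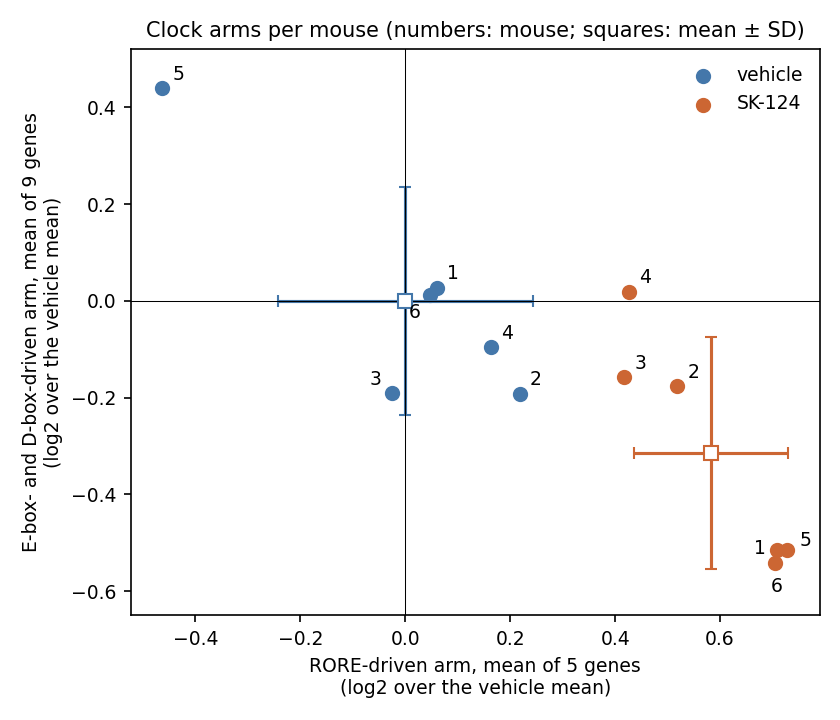
Mean log2 level of the ROR-element side (RORE-driven arm, 5 genes, x axis) against the E-box and D-box side (9 genes, y axis) in each numbered mouse, relative to the vehicle mean, with squares for group means and lines for ± 1 SD. All 6 SK-124 mice lie to the right of all vehicle mice; SK-124 mice 1, 5 and 6 are also lowest, and vehicle mouse 5 is alone at upper left.

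Within the vehicle group the clock genes of 1 mouse set it apart along both sides at once. Vehicle mouse 5 was the highest of its group for 11 of the 18 core and companion genes, namely Per1, Per2, Per3, Cry2, Nr1d2, Dbp, Tef, Hlf, Ciart, Bhlhe40 and Bhlhe41. It was the lowest for 4 more, Cry1, Arntl, Npas2 and Nfil3. On the E-box and D-box side it read 0.44 and on the ROR-element side -0.46. Its Per1 level of 27.2 CPM was nevertheless well short of the lowest SK-124 mouse. The same mouse had the immediate-early genes Fos at 27.1 CPM, Nr4a1 at 22.9 CPM, Dusp1 at 73.2 CPM and Junb at 55.4 CPM. Each was above its vehicle median (0.726, 3.72, 27.3 and 15.9 CPM). Of the other acute CREB targets listed below, Fosb, Sik1 and Rgs2 were also highest in it. Nr4a2, Nr4a3, Ppargc1a, Pck1 and Noct were higher in vehicle mouse 6. Crem was the lowest of its group at 4.51 CPM, and Atf3, at 0.427 CPM, was below its vehicle median of 0.485 CPM. The part of any of these genes in its clock values was not tested. Vehicle mouse 3 was the lowest of its group for 9 of the 18 genes, 5 of them core (Per1, Per2, Cry2, Clock and Nr1d2), and the highest for Nr1d1. Without vehicle mouse 3, 3942 of all tested genes were called against 3453 with all mice, the most for any mouse left out. Among the SK-124 mice, mouse 4 was the highest for Per1, Per3, Cry2, Nr1d1, Dbp, Ciart and Bhlhe40 and the lowest for Arntl and Rora.

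**Figure D4:**
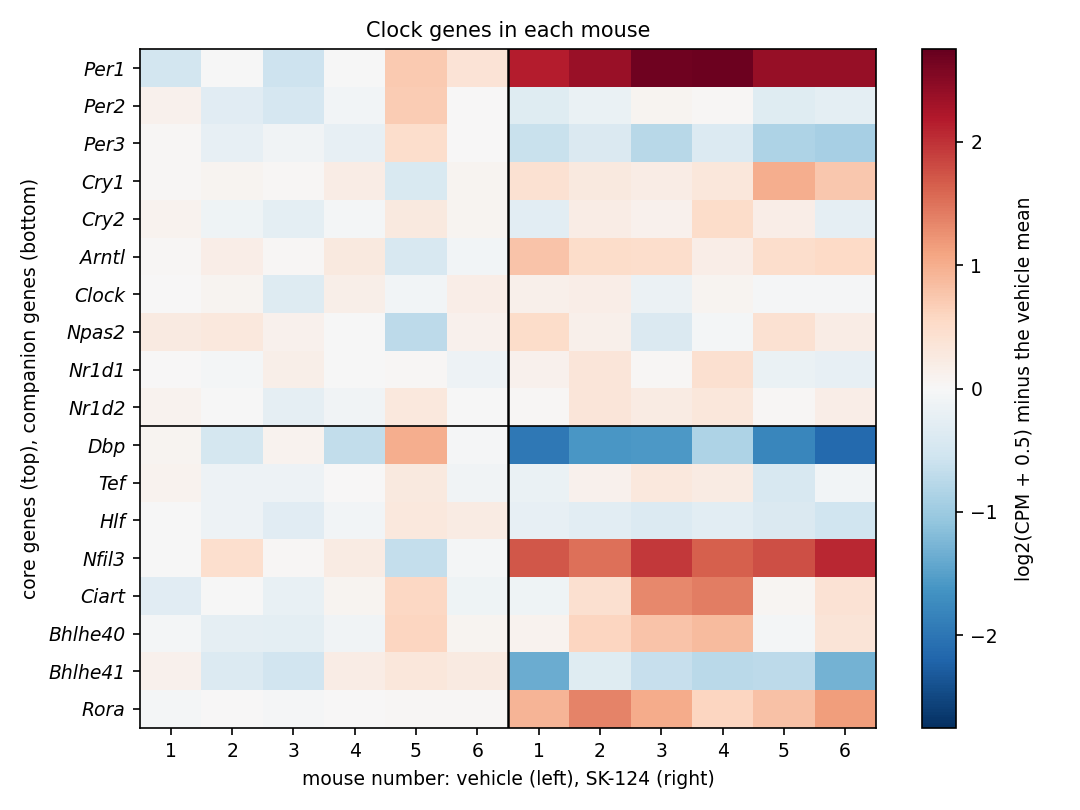
Map of 18 clock genes (rows; core genes above the line) in 12 mice (columns; vehicle left, SK-124 right), coloured by log2(CPM + 0.5) minus the vehicle mean. Per1 and Nfil3 are high in all 6 SK-124 mice and Dbp is low in all 6. Vehicle mouse 5 shows the Per genes, Cry2, Nr1d2, Dbp, Tef, Hlf, Ciart, Bhlhe40 and Bhlhe41 high. In that mouse Arntl, Cry1, Npas2 and Nfil3 are low and Nr1d1 is near the vehicle mean (0.036).

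The spread between mice of one group also showed which genes varied together. Levels were centred on each group's mean, so that the treatment difference did not enter, and correlated over the 12 mice with each of 13008 genes of at least 1 CPM. These values are descriptions, since all genes of a mouse share its library and scaling. The genes most like Arntl were Ppard (r = 0.88), Kif5a (0.87), Ypel2 (0.85), Tmem163 (0.84) and Nvl (0.84). At the other end, Dbp had the most negative r of all, -0.93, and it was -0.87 without vehicle mouse 5. Per1 went with other genes: Jun (r = 0.90), Fchsd1 (0.87), Hexim1 (0.86), Rhpn2 (0.85) and Csrnp1 (0.85). Jun and Csrnp1 are immediate-early genes, and their r with Per1 stayed at 0.84 and 0.84 without vehicle mouse 5. These genes did not share the rise of Per1 between the groups. Jun (log2 fold change 0.19, edgeR FDR 0.58), Csrnp1 (0.43, FDR 0.25), Fchsd1 and Rhpn2 were not called, and Hexim1 was lower (-0.34, FDR 9.6e-04). The r of Per1 with Per2 was 0.75 and fell to 0.50 without that mouse.

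Within each group of 6 mice, 10 relations between core genes were also tested, and on log2(CPM + 0.5) none passed after adjustment. The closest were Per1 with Per2 in SK-124 mice (Pearson r = 0.90, permutation p = 0.033; Spearman rho = 0.54, permutation p = 0.30; adjusted p = 0.17 over 10) and Arntl with Per1 in SK-124 mice (Pearson r = -0.84, permutation p = 0.029; Spearman rho = -0.89, permutation p = 0.033; adjusted p = 0.17). Over the 4 mice left without the 2 farthest from the median of the first-named gene, r was 0.35 and -0.30. The outcome changed with the scale. On log2(TPM + 0.5), Arntl with Nr1d1 in vehicle mice (Pearson r = -0.97, permutation p = 0.0014, adjusted p = 0.014 over 10) and Per1 with Per2 in SK-124 mice (r = 0.95, permutation p = 0.0056, adjusted p = 0.028) passed. Their Spearman rho on that scale was -1.0 (permutation p = 0.0028) and 0.83 (permutation p = 0.058). On log2(CPM + 0.5), Arntl with Nr1d1 in the same vehicle mice had a Pearson r of only -0.10 (permutation p = 0.825).

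Proteins that modify the clock proteins set the pace of the loop. Of 19 listed kinases, ubiquitin ligases and cofactors, 5 were higher (Usp2, Nampt, Fbxw11, Sirt1 and Csnk1d), 0 were lower and 14 were not called by edgeR. Over all tested genes the shares were 10.8% higher and 13.5% lower. At an unadjusted p under 0.05, 2 were lower, and 0 were lower by DESeq2 or limma. Usp2, a deubiquitinase of clock proteins and itself a clock output, rose from 69.9 ± 6.00 to 179 ± 14.3 CPM (SD, n = 6; log2 fold change 1.35 ± 0.07 SE, edgeR FDR 2.6e-10). Nampt, the enzyme of NAD synthesis that lies under clock control, had a log2 fold change of 0.32 ± 0.05 (SE, edgeR FDR 2.0e-04). Fbxw11, a ligase subunit that acts on PER proteins, had a log2 fold change of 0.25 ± 0.07 (SE, edgeR FDR 0.011), and Sirt1, an NAD-dependent deacetylase, one of 0.23 ± 0.07 (SE, edgeR FDR 0.017). With library totals 2 modifiers were higher and 2 lower, with SK-124 mice 1 to 3 alone 2 were higher and 1 lower, and with either limma fit 1 was higher.

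Listed genes known to respond to CREB or to glucocorticoids were counted, since the Per1 promoter responds to both. Membership of a list does not show that a gene shared an input with Per1 in these mice. The lists were chosen with earlier results of these data known, so the counts are descriptions and not tests of an input. Over all tested genes 10.8% were higher and 13.5% lower by edgeR. Of 14 listed acute targets of CREB, 12 were higher and 0 lower by edgeR, with a median log2 fold change of 1.79, and Fos and Fosb were not called. With all mice Fos was at 0.13 ± 0.78 (SE, edgeR FDR 0.92) and Fosb at 1.48 ± 0.69 (SE, edgeR FDR 0.13). Without vehicle mouse 5, which had Fos at 27.1 CPM, both passed (Fos 2.67 ± 0.45 SE, edgeR FDR 3.6e-04, and Fosb 3.60 ± 0.55 SE, FDR 1.6e-04), and all 14 were higher. That fit was added after the data were seen and leaves out the mouse with the highest Fos and Fosb, so it is a description. With all mice, at an unadjusted p under 0.05, by DESeq2 and by limma 0 were lower as well. The smallest p values belonged to Noct (3.14 ± 0.15 SE), Crem (1.75 ± 0.09), Nr4a3 (5.20 ± 0.32) and Pck1 (1.84 ± 0.13). Of 12 listed glucocorticoid-responsive genes all 12 were higher, with a median log2 fold change of 2.44, led by Ddit4 (4.15 ± 0.12 SE), Cdkn1a (3.43 ± 0.12), Zbtb16 (5.09 ± 0.18) and Angptl4 (2.47 ± 0.09). The Per1 value of 2.42 lay between these medians. The part of either input in the Per1 change was not tested, and both lists were higher in the same mice.

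Outputs of the clock in renal transport gave no common direction. Of 10 listed genes, Wnk1, Aqp2 and Edn1 were higher, Wnk4 and Avpr2 were lower and 5 were not called, with a median log2 fold change of -0.04. The shares among all tested genes were 10.8% higher and 13.5% lower. Avpr2, the vasopressin receptor of the collecting duct, fell from 8.62 ± 1.12 to 3.81 ± 0.51 CPM (SD, n = 6; edgeR FDR 5.0e-07), while Aqp2, the water channel it controls, rose from 105.0 ± 20.03 to 177 ± 42.7 CPM (SD, n = 6; edgeR FDR 8.5e-04). Wnk4, a kinase that sets sodium chloride transport, had a log2 fold change of -0.55 ± 0.07 (SE, edgeR FDR 2.0e-05). Scnn1a, a sodium channel subunit that is a known Per1 target, ran from 145 to 167 CPM with vehicle and from 146 to 180 CPM with SK-124, a log2 fold change of 0.05 ± 0.06 (SE, edgeR FDR 0.60).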

How the data were processed

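Whole-kidney total RNA of 12 mice was sequenced on a BGISEQ-500, 1 library per mouse. The submitters' processing notes name FastQC, STAR 2.7.2b, RSEM 1.3.0, DESeq2 and build mm10; the annotation and the use of strand are not given in the sources used here. The authors deposited RSEM gene tables with expected counts, which are estimated reads without normalization, and TPM, which RSEM scales to gene length and library total. Of 55401 identifiers, 54349 were found with the same version in GENCODE M21, the GRCm38 annotation that also gave the coordinates, and 55141 when the version was ignored.

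Rounded expected counts were scaled by TMM, and genes kept by filterByExpr (14159) entered edgeR's quasi-likelihood test, with no block and with Benjamini-Hochberg adjustment over all of them. CPM are TMM-normalized. Ratios were compared on log2(CPM + 0.5) by exact permutation over mice, two-sided. Standard errors are the log2 fold change over the square root of the F statistic. The fits were tested on simulated data. Versions were R 4.3.3, edgeR 4.0.16, DESeq2 1.42.0, limma 3.58.1, Python 3.11.15, pandas 2.3.3, numpy 2.4.6, scipy 1.17.1 and matplotlib 3.10.9.

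Groups and replicate numbers come from the labels. Nothing pairs the numbers across groups. The members and gene lists were chosen with earlier results of these data known, and some listed genes are not reported here. Named were all members, every called companion and up to 4 genes with the smallest p in each other list. The other companions, Scnn1a, the listed names of called genes and the immediate-early genes and CREB targets given for vehicle mouse 5 were named after their values were seen. No 2 mice of a group agreed within sampling noise, since the lowest chi-square per degree of freedom was 4.69 over 30 pairs. Alternatives were DESeq2, RLE scaling, library totals, no filter, at least 10 counts in every mouse, limma on TPM, other pseudocounts, the replicate block, SK-124 mice 1 to 3 or 4 to 6, and each mouse left out. Core genes only in each side of the loop, Cry2 and Bhlhe40 added to the E-box side, and likeness and CREB targets without vehicle mouse 5 were added after the data were seen.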

Additional observations from a re-analysis of the deposited data

Results flagged for a closer look

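A mouse far from the rest of its group was looked for in 40 groups of 6 values (clock genes and both sides of the loop), and 8 were found, where chance gives about 2.0. Of these, 7 were vehicle mouse 5, which had Per3 at 11.05 CPM, Dbp at 41.03 CPM, Ciart at 1.138 CPM and Bhlhe40 at 80.88 CPM as the highest values and Cry1 at 1.281 CPM as the lowest. The same mouse stood at 0.4389 for the E-box and D-box side and at -0.4629 for the ROR-element side, both as log2 over the vehicle mean. The eighth was SK-124 mouse 4, the highest of its group for Dbp at 11.09 CPM. These 8 values are not independent, since the genes belong to the same loop. Library depth did not set vehicle mouse 5 apart, at 19573310 estimated reads.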

How the results depend on the processing

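Per1 (2.02 to 2.60 on the log2 scale), Per3, Arntl, Dbp, Nfil3 and Rora were called in the same direction under every alternative run. The core genes higher numbered 2 to 4 and the core genes lower 1 throughout. With the replicate block, Per1 was at 2.46, 3466 genes were called against 3453, the core genes counted 3 higher and 1 lower, and each Per1 ratio had p = 0.03125 in an exact paired permutation test, the smallest that 6 pairs give; same-numbered mice correlated from -0.15 to 0.24, with 2 of 6 pairs over 0.1, and 2 of the vehicle mice correlated best with their own number, so the numbers were not taken as pairs.

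Companions higher became 4 without a filter on low counts and ranged from 2 to 4 with a mouse left out (4 without SK-124 mouse 1, SK-124 mouse 5 or vehicle mouse 5), and companions lower became 1 with SK-124 mice 1 to 3. Modifiers higher became 2 with library totals, with SK-124 mice 1 to 3 and with SK-124 mice 4 to 6, and 1 with limma on log2(TPM + 0.1) and log2(TPM + 1). Modifiers lower became 2 with library totals, 1 with SK-124 mice 1 to 3, and ranged from 0 to 1 with a mouse left out (1 without SK-124 mouse 4, SK-124 mouse 5 or vehicle mouse 3). The ROR-element difference became 0.29 with core genes only. Library totals moved the median of all genes from -0.01 to -0.12. Of genes not called, the log2 fold change turned with library totals, limma on log2(TPM + 0.1) and limma on log2(TPM + 1) for Clock (-0.10, -0.12, -0.10), Cry2 (-0.012, -0.033, -0.023), Nr1d1 (-0.012, -0.061, -0.059) and Tef (-0.11, -0.14, -0.14). It also turned with SK-124 mice 4 to 6 for Clock (-0.00049) and Tef (-0.066) and with the replicate block for Tef (-0.0019). With a mouse left out, Clock ranged from -0.041 to 0.058, Cry2 from -0.0046 to 0.17 and Tef from -0.053 to 0.086. On log2(TPM + 0.5), Arntl with Nr1d1 in vehicle mice had r = -0.97 (permutation p = 0.0014, adjusted p = 0.014) and Arntl with Per1 in SK-124 mice r = -0.23. On log2(CPM + 0.5) the same relations had r = -0.10 and -0.84. The causes were not tested. Among the clock genes, Cry1, Ciart and Bhlhe41 had the lowest counts, with group means under 3 CPM.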
